A study of Mus musculus with 61 samples.

Results

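Wnt ligands, their Frizzled receptors, the R-spondins and the Sfrp and Dkk inhibitors were examined in adipose tissue of 8 inbred mouse strains, the founders of the Diversity Outbred population. Members were the genes of the count table whose symbol begins with Wnt, Fzd, Sfrp, Dkk or Rspo followed by a number, Sfrp5 excepted, and 33 of 21169 genes met this rule. They comprise 14 Wnt, 10 Fzd, 4 Rspo, 3 Sfrp and 2 Dkk genes. Every group was on a diet rich in fat and sugar, with 45% fat per the labels, and no group on another diet was analysed here. Poly(A) RNA was sequenced from 61 libraries, of which 129, AJ and Cast mice gave 7 each while mice of the strains B6, NOD, NZO, PWK and WSB gave 8 each. The labels name no fat depot, sex, age or batch, and no strain serves as a control, so each strain is set against the mean of the other 7.

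Wnt proteins are secreted, lipid-bearing signals. When a Wnt binds a Frizzled together with the co-receptor Lrp5 or Lrp6, β-catenin is spared from destruction and enters the nucleus, while other Wnts, Wnt5a among them, act largely without β-catenin. R-spondins bind Lgr receptors and keep the ubiquitin ligases Znrf3 and Rnf43 from removing Frizzleds, which amplifies the signal. Secreted Frizzled-related proteins (Sfrp) bind Wnts, and Dickkopf proteins (Dkk) bind the co-receptors. In fat, β-catenin signalling is known to restrain the conversion of precursors into adipocytes, and Wnt10b is the ligand best known for it.

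Levels are given in CPM, reads of a gene scaled to the size of its library. Total counts ran from 19851580 to 61277576 per library. All 12 adipocyte markers had reads in each library, Fabp4 from 4510 CPM upwards and Adipoq from 221 CPM upwards. Lep (median 1080 CPM) fell as low as 0.72 CPM and Aqp7 (median 177 CPM) as low as 11.1 CPM. Markers of other tissues stood out in some libraries: 10 held over 500 CPM of liver, over 300 CPM of genital duct or over 300 CPM of muscle markers, and 10 held over 10 CPM of genital duct markers. Results that move with these libraries are given with and without them.

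Between genes, levels were compared per kilobase of annotated exon. Fzd4, a receptor for Wnts and for norrin, stood far above the other members at 82.9 CPM per kilobase (mean of 61 libraries). It was followed by Fzd1 at 13.0, the inhibitor Sfrp2 at 11.6, Rspo1 at 9.52 and Sfrp1 at 6.57 CPM per kilobase. The highest ligands were Wnt2b at 4.32 and Wnt5a at 4.17 CPM per kilobase. Wnt9a had 1.53, Wnt11 0.888, Wnt5b 0.792, Wnt2 0.707, Wnt10b 0.435 and Wnt4 0.406 CPM per kilobase, and each further ligand was at or below 0.3. Wnt1 and Wnt10a were the lowest members, at 0.0224 and 0.0193 CPM per kilobase. Wnt1 had 0 to 12 reads per library and Wnt10a 0 to 20, with no read in 23 and 29 libraries, and neither passed the filter on low counts.

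**Figure D1:**
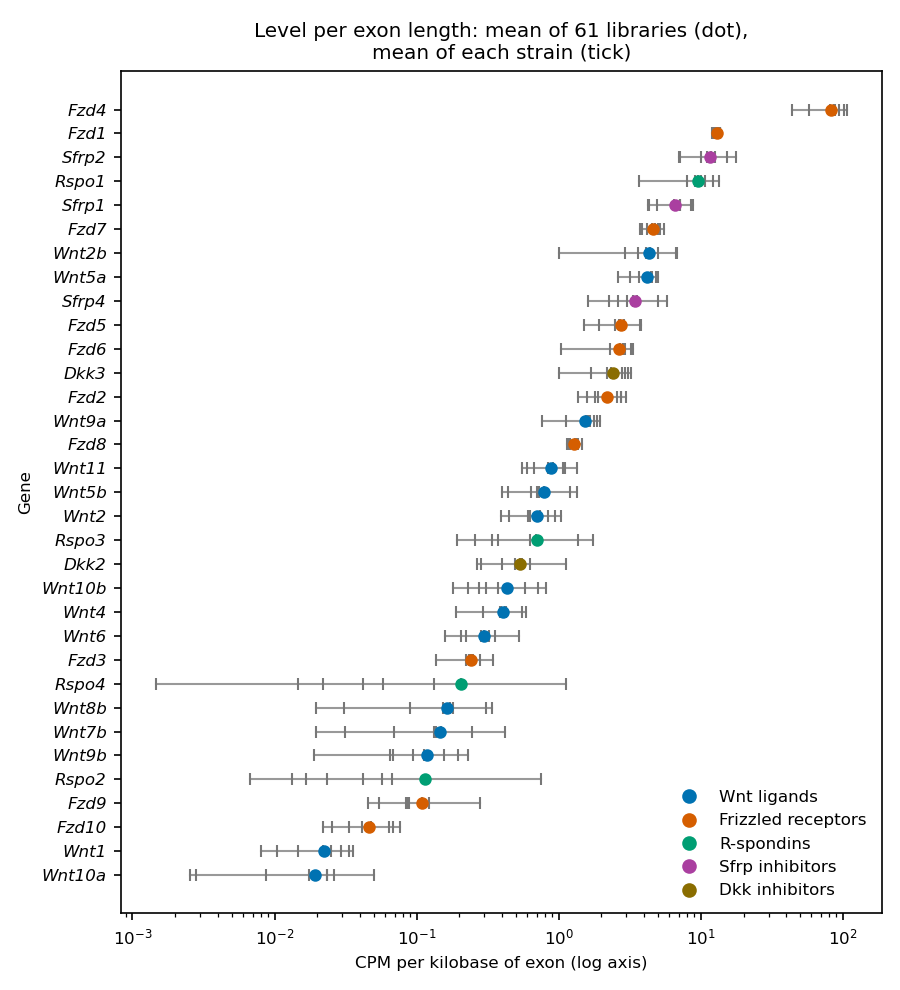
Level of the 33 members in CPM per kilobase of exon on a log axis, with the mean of 61 libraries as a dot coloured by family and the 8 strain means as ticks. Fzd4 stands alone at the top, and the strain means of Rspo4, Rspo2 and Wnt7b spread more widely than those of Fzd1.

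The remaining 31 members were tested. In the F-test of edgeR over the 8 strains, 24 of them (77.4%) had an adjusted p under 0.05, against 89.9% of the 18603 genes tested. The members' share lay below that of all genes. By family, 10 of 12 Wnt, 7 of 10 Fzd, 4 of 4 Rspo, 1 of 3 Sfrp and 2 of 2 Dkk genes differed among strains. Members not called were Wnt4 (adjusted p = 0.161), Wnt6 (0.171), Fzd1 (0.603), Fzd8 (0.0912), Fzd10 (0.152), Sfrp1 (0.385) and Sfrp4 (0.0633). Differences between strains made up 43.9% of the variance of log2 CPM for the median member and 48.7% for the median gene of the table.

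**Figure D2:**
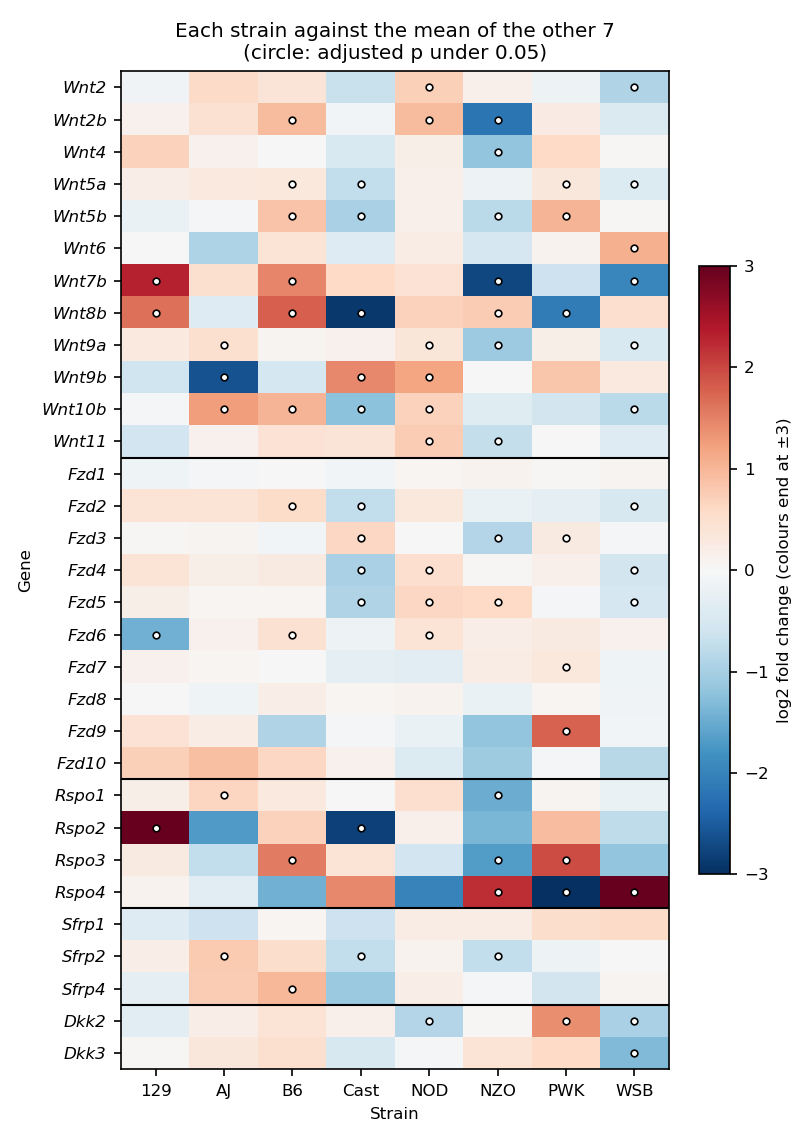
log2 fold change of each tested member (rows) in each strain against the mean of the other 7 strains (columns), red for higher and blue for lower, with a circle where the adjusted p of edgeR was under 0.05. The column of NZO is mostly blue among ligands and R-spondins, that of B6 has circles on red cells only, and colours end at ±3.

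Across the 8 contrasts 74 of 248 member and strain pairs were called, in 27 members. In NZO 13 of 31 members (41.9%) were called, 3 higher and 10 lower, where 53.9% of all genes were called, 27.2% higher and 26.6% lower. WSB had 12 called members, 2 higher and 10 lower, against 49.3% of all genes, 25.6% higher and 23.7% lower. In Cast 11 members were called, 2 higher and 9 lower, against 56.2% of all genes, 29.6% higher and 26.6% lower. B6 had 10 called members, all higher, against 26.3% of all genes, 14.6% higher and 11.7% lower. NOD had 10 as well, 9 higher and 1 lower, against 26.5% of all genes, 14.7% higher and 11.8% lower. PWK had 9 called members, 7 higher and 2 lower, against 43.6% of all genes, 24.6% higher and 19% lower. AJ had 5, 4 higher and 1 lower, against 23% of all genes, 13.4% higher and 9.59% lower. The strain 129 had 4, 3 higher and 1 lower, against 18.6% of all genes, 10.8% higher and 7.78% lower. The median log2 fold change of the 31 members was 0.40 in B6, 0.20 in NOD, −0.20 in NZO, −0.21 in WSB and −0.28 in Cast, where the median of all genes lay between −0.02 and 0.02. Calls ran mostly downward in NZO, WSB and Cast and upward in B6, NOD and PWK, and the members' share of calls lay above that of all genes in B6 and NOD (32.3% each) and below it in the other 6 strains. The 8 contrasts share libraries and are not independent of each other. Fold changes below are log2 values ± standard error with the adjusted p of edgeR, and p-values measure the spread between these libraries, since the labels do not state whether each came from a separate animal.

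Among the ligands, Wnt2b was lowest in NZO fat. Wnt2b had 2.00, 2.84 and 8.27 CPM (lowest, median and highest) in the 8 NZO libraries, against 2.64 to 63.0 CPM in the other strains. Every NZO library lay below the median of the others, and the log2 fold change was −2.20 ± 0.41 (adjusted p = 9.36e-06). Strain means ran from WSB at 12.3 CPM through Cast (15.1), 129 (17.3), PWK (18.5) and AJ (21.0) to NOD at 28.1 and B6 at 28.4 CPM. Wnt2b was called higher in B6 (0.95 ± 0.31, adjusted p = 0.0187) and in NOD (0.94 ± 0.31, adjusted p = 0.0205), but 4 of 8 NOD libraries lay below the median of the others. In NOD the libraries held 6.04, 19.9 and 61 CPM, so the strain mean describes few of them. The 4 NOD libraries with high Xist, the RNA of the inactive X chromosome, held 26.9 to 61 CPM. The 4 with low Xist held 6.04 to 12.8 CPM. The calls in B6 and NOD were lost without single libraries. The value in B6 was 0.67 (adjusted p = 0.139) without replicate 1, and that in NOD was 0.67 (adjusted p = 0.141) without replicate 3. In bulk tissue, fewer cells of a type and less RNA per cell cannot be told apart.

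Wnt9a, known from joint development, followed the same order at its low end. It had 1.31, 2.47 and 4.41 CPM in NZO, against 2.56 to 9.36 CPM in the other strains. All 8 NZO libraries lay below the median of the others, with a log2 fold change of −1.08 ± 0.16 (adjusted p = 1.21e-07). WSB was next, with a mean of 3.73 CPM and a fold change of −0.46 ± 0.15 (adjusted p = 0.0118), followed by B6 at 5.19, Cast at 5.38, PWK at 5.49 and 129 at 5.92 CPM. Wnt9a was called higher in AJ (mean 6.55 CPM, 0.47 ± 0.15, adjusted p = 0.018) and in NOD (mean 6.19 CPM, 0.37 ± 0.14, adjusted p = 0.0467). The call in NOD was lost in 31 of the 61 fits that left out a library, the call in AJ in 1 of them (without AJ replicate 6).

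Wnt2b, Wnt9a and Rspo1 were the members above 1 CPM with a promoter entry that were most clearly lower in NZO. The sequences before their RefSeq starts are shown for that reason. RefSeq promoter entries were at hand for 21 of the 33 members. The 250 bases before the RefSeq start are given 5′ to 3′ in the direction of transcription on build GRCm38.p6, with matches to GGGCGG, or to its reverse complement CCGCCC, in capitals. The Wnt2b sequence lies at chr3:104961710-104961959 on the minus strand, that of Rspo1 at chr4:124986180-124986429 on the plus strand and that of Wnt9a at chr11:59306680-59306929 on the plus strand. GENCODE starts Wnt2b further upstream, at 104961921. Most of the Wnt2b stretch, with all 3 of its GGGCGG matches, thus lies inside the gene as GENCODE places it.
Wnt2b: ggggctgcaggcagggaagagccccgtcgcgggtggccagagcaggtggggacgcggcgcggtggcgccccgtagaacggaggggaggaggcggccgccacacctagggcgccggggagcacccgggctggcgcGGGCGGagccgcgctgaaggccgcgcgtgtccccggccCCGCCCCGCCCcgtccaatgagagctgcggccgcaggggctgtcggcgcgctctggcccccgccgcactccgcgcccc
Rspo1: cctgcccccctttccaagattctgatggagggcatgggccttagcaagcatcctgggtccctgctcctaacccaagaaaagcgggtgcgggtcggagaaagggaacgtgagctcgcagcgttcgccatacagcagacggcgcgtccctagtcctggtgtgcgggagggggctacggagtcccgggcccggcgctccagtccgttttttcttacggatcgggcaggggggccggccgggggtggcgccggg
Wnt9a: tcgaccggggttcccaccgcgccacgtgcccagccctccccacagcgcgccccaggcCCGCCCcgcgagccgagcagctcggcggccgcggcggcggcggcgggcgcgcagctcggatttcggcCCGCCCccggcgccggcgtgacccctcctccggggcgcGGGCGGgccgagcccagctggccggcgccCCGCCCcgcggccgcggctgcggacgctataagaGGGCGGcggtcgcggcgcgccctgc
All 3 are rich in G and C, with 80.8% in Wnt2b, 66.8% in Rspo1 and 84.4% in Wnt9a. GGGCGG, searched on both strands, had 3 matches in Wnt2b, 5 in Wnt9a and 0 in Rspo1, and 32.7% of 32851 windows of the same length before RefSeq starts held it. TATAAA (in 12.4% of those windows) and CTTTGAT (3.21%) matched none of the 3 on either strand. The strains' own bases at these sites are not analysed here, and a match is a run of letters, not a measured site.

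Wnt5a, a ligand that acts largely without β-catenin, was lowest in Cast. It had 8.22, 19.7 and 34.9 CPM in Cast, against 17.4 to 43.1 CPM in libraries of other strains (−0.74 ± 0.14, adjusted p = 1.14e-05). All 7 Cast libraries lay below the median of the others. WSB also had less Wnt5a (mean 24.8 CPM, −0.40 ± 0.13, adjusted p = 0.00793), while PWK (39.0 CPM, 0.34 ± 0.12, adjusted p = 0.0192) and B6 (38.4 CPM, 0.31 ± 0.12, adjusted p = 0.0468) had more. NZO averaged 28.9, NOD 35.1, 129 35.6 and AJ 38.0 CPM, none of them called. The increases in PWK and B6 were small, and the call in B6 was lost in 33 of 61 fits without a library. Without the 10 libraries over 10 CPM of genital duct markers, the calls in PWK (0.33, adjusted p = 0.0582) and in B6 (0.34, adjusted p = 0.085) were lost at values close to those with them. Its relative Wnt5b was low in Cast as well (mean 1.06 CPM, −0.97 ± 0.27, adjusted p = 0.00202) and in NZO (1.16 CPM, −0.82 ± 0.25, adjusted p = 0.00514). Wnt5b was higher in PWK (3.56 CPM, 1.02 ± 0.22, adjusted p = 0.000105) and in B6 (3.21 CPM, 0.85 ± 0.22, adjusted p = 0.0025), with 129, AJ, WSB and NOD between 1.69 and 2.10 CPM. PWK and B6 were thus above, and Cast below, the other strains in both genes of this pair.

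Wnt10b, the ligand that restrains adipocyte formation, divided the strains into an upper and a lower set. It had 2.09, 2.90 and 3.65 CPM in AJ, against 0.179 to 3.62 CPM in the other strains (log2 fold change 1.25 ± 0.22, adjusted p = 1.88e-05). It had 1.22, 2.48 and 3.62 CPM in B6 (1.03 ± 0.22, adjusted p = 0.000207) and 1.34, 1.96 and 2.43 CPM in NOD (0.69 ± 0.22, adjusted p = 0.0168). At the lower end it had 0.179, 0.560 and 1.15 CPM in Cast (−1.24 ± 0.28, adjusted p = 0.000186). All libraries of AJ, B6 and NOD lay above the median of the others, and all of Cast below it. WSB was also called lower (mean 0.786 CPM, −0.81 ± 0.26, adjusted p = 0.00716), whereas PWK (0.933), NZO (1.05) and 129 (1.28 CPM) were not called. These 5 Wnt10b calls held in each of the 61 fits without a library and in the 10 alternative fits.

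Wnt4, a ligand of kidney and gonad development, was lower in NZO alone among the contrasts. It had 0.175, 0.465 and 2.50 CPM in NZO, against 0.262 to 5.88 CPM in the other strains (−1.18 ± 0.46, adjusted p = 0.026). The highest NZO library lay above the means of the other strains, which ran from 1.23 CPM in Cast to 2.48 CPM in 129. The F-test over strains did not call Wnt4, and leaving out any of 4 libraries lost the NZO call (adjusted p up to 0.0622). Wnt11, which acts largely without β-catenin, had a mean of 2.27 CPM in NZO, against 3.87 CPM for the mean of the other strains (−0.72 ± 0.25, adjusted p = 0.0124). In NOD its mean was 5.56 CPM, against 3.4 CPM (0.75 ± 0.22, adjusted p = 0.00737). Wnt2, a ligand of lung development, was lower in WSB (0.881 against 1.69 CPM, −0.90 ± 0.31, adjusted p = 0.0127) and called higher in NOD (2.33 against 1.49 CPM, 0.71 ± 0.26, adjusted p = 0.0389). Only 4 of the 8 NOD libraries stood above the median of the others, and the call was lost without any 1 of NOD replicates 1, 2, 3 and 4 (adjusted p from 0.0974 to 0.171).

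The ligands below 1 CPM on average, named here after their values were seen, showed large fold changes on few reads. Wnt8b, a ligand of the developing brain, had 0.0225 to 0.112 CPM in Cast (16 reads over 7 libraries), against a mean of 0.634 CPM in the other strains (−2.90 ± 0.49, adjusted p = 1.56e-06). It was also lower in PWK (mean 0.107 CPM, 36 reads, −2.09 ± 0.42, adjusted p = 5.66e-05). Means reached 1.18 CPM in B6 (1.80 ± 0.30, adjusted p = 3.72e-06) and 1.08 CPM in 129 (1.65 ± 0.32, adjusted p = 7.8e-05). The remaining means were 0.311 CPM in AJ, 0.534 CPM in WSB, 0.599 CPM in NOD and 0.626 CPM in NZO, where the higher call (0.76 ± 0.32, adjusted p = 0.0417) was lost in 5 of the 61 fits without a library. Wnt9b, a kidney ligand, had 0 to 0.21 CPM in AJ (24 reads over 7 libraries), against a mean of 0.594 CPM elsewhere (−2.62 ± 0.55, adjusted p = 0.000264). It was higher in Cast (mean 1.04 CPM, 1.45 ± 0.38, adjusted p = 0.000978) and in NOD (mean 0.883 CPM, 1.19 ± 0.37, adjusted p = 0.0118), where the call was lost without NOD replicate 8 (0.92, adjusted p = 0.0814). Wnt6 was called higher in WSB (1.07 ± 0.41, adjusted p = 0.0271), where 4 of 8 libraries stood above the median of the others and replicate 7 held 4.02 CPM, and without that library the value was 0.45 (adjusted p = 0.411).

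**Figure D3:**
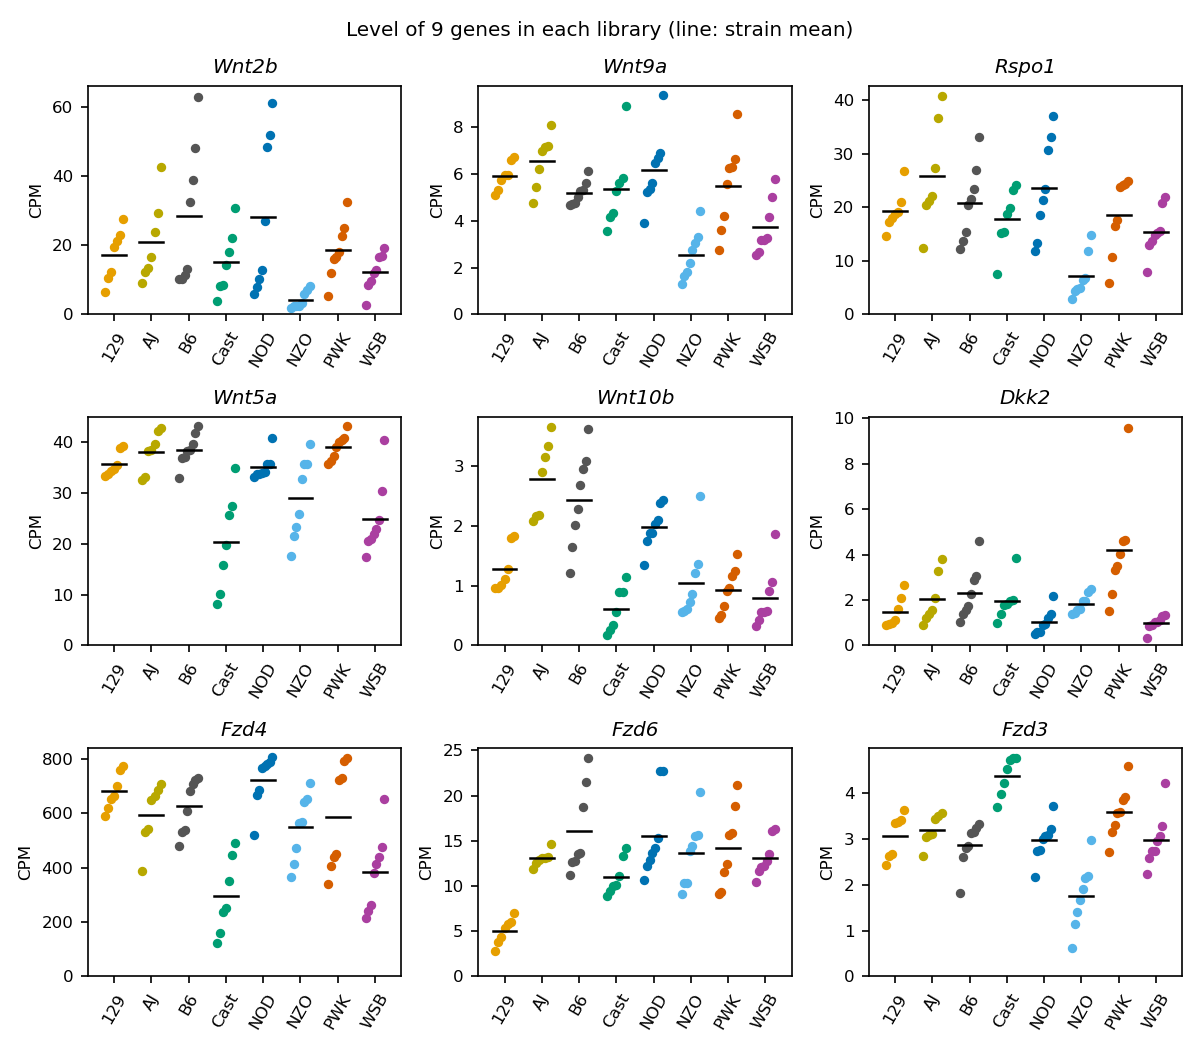
CPM of 9 members in each of the 61 libraries, grouped by strain, with each strain mean as a line and every axis starting at 0. The 7 libraries of 129 lie at 2.87 to 7 CPM of Fzd6, under all other libraries. The NZO mean is the lowest for Wnt2b, Wnt9a, Rspo1 and Fzd3, where NZO points overlap those of other strains.

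Among the receptors, Fzd6 separated 129 from the other strains completely. Fzd6 (chr15:39006034-39038188), a Frizzled known from hair and tissue orientation, had 2.87, 4.36, 6.01, 3.80, 5.31, 7 and 5.79 CPM in the 7 libraries of 129, against 8.95 to 24.2 CPM in the 54 others. No library of 129 reached the lowest of the other strains, which is rare in the table: 0.0645% of genes lay wholly below in 129. The log2 fold change was −1.45 ± 0.16 (adjusted p = 2.79e-10), and it stayed between −1.55 and −1.35 when any library was left out. The other strain means were closer, from 11.0 CPM in Cast through AJ and WSB (13.1 each), NZO (13.7) and PWK (14.2) to NOD (15.6) and B6 (16.0 CPM). B6 (0.46 ± 0.13, adjusted p = 0.00516) and NOD (0.41 ± 0.13, adjusted p = 0.0132) were called higher. The call in NOD was lost without NOD replicate 6 (0.31, adjusted p = 0.0847), without NOD replicate 8 (0.31, 0.0833) and without the 10 libraries rich in markers of liver, genital duct or muscle (0.30, 0.102). A noncoding gene of the opposite strand, Gm26704, overlaps 3.15% of the exon bases of Fzd6, and the use of strand in counting is not given in the sources used here.

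Fzd4 (chr7:89404355-89413134), the leading receptor, was reduced in Cast and WSB. It had 124, 252 and 492 CPM in Cast, against 214 to 807 CPM in the other strains (−0.98 ± 0.18, adjusted p = 5.27e-06). In WSB it had 214, 399 and 655 CPM (−0.54 ± 0.16, adjusted p = 0.00454). NOD had the most, with 519, 771 and 807 CPM (0.50 ± 0.15, adjusted p = 0.00917). All 7 Cast libraries and 7 of 8 WSB libraries lay below the median of the others, and NZO (550), PWK (586), AJ (596), B6 (627) and 129 (681 CPM) were not called. Fzd5 had fractional expected counts in most libraries and overlaps a gene of the opposite strand over 17.8% of its exon bases, so its values are uncertain. Its means were 10.4 CPM in Cast (−0.90 ± 0.18, adjusted p = 3.34e-05) and 13.2 CPM in WSB (−0.51 ± 0.17, adjusted p = 0.00902). It was higher in NOD (26.3 CPM, 0.62 ± 0.15, adjusted p = 0.00121) and NZO (25.8 CPM, 0.59 ± 0.15, adjusted p = 0.000798), with PWK, AJ, B6 and 129 at 17.2 to 19.9 CPM. Fzd5 was the only receptor called higher in NZO.

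Fzd3 (chr14:65192449-65262463), a Frizzled of axon guidance, was lowest in NZO and highest in Cast. NZO had 0.620, 1.79 and 2.97 CPM, against 1.82 to 4.78 CPM in the other strains (−0.89 ± 0.13, adjusted p = 8.54e-08). Cast had 3.69, 4.53 and 4.78 CPM, against 0.620 to 4.60 CPM in the others (0.62 ± 0.12, adjusted p = 2.35e-05). All 8 NZO libraries lay below and all 7 Cast libraries above the median of the others. The other means lay between 2.87 CPM in B6 and 3.59 CPM in PWK, with WSB, NOD, 129 and AJ at 2.97 to 3.2 CPM. The call in PWK (0.28 ± 0.12, adjusted p = 0.0462) was lost in 23 of 61 fits without a library. Fzd2 was lower in Cast (mean 4.99 CPM, −0.74 ± 0.20, adjusted p = 0.00154) and WSB (5.78 CPM, −0.49 ± 0.19, adjusted p = 0.0236) and higher in B6 (10.9 CPM, 0.55 ± 0.17, adjusted p = 0.012). The call in WSB was lost in 4 of the fits without a library. PWK, NZO and NOD averaged 6.59, 6.96 and 9.43 CPM of Fzd2, and 129 and AJ 10 CPM each. Cast and WSB were therefore both low for Fzd2, Fzd4 and Fzd5, while Fzd3 was high in Cast. Of 11 markers of stromal progenitors, 2 were higher and 6 lower in Cast (sums of 2460 to 4590 CPM) and 5 lower in WSB (2600 to 4710 CPM), where the highest library of each other strain reached 5380 CPM or more. In WSB 8 of 12 adipocyte markers were higher and 1 lower, and 6 of 6 macrophage markers were lower. In Cast 6 of 6 T and NK cell markers were lower and 9 of 12 mesothelial markers higher. The part of these cell types in the receptor levels was not tested.

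The other receptors gave 2 calls, Fzd7 and Fzd9 in PWK. Fzd1 had strain means from 50.1 CPM in 129 to 57.8 CPM in NZO, and 9.46% of its variance lay between strains. Fzd8 had means from 6.79 CPM in NZO to 8.75 CPM in B6, and Fzd10 had 0 to 0.637 CPM. The Fzd7 call in PWK (25 against 20.2 CPM, 0.31 ± 0.13, adjusted p = 0.0363) went with replicate 6 at 50.2 CPM, and without that library the value was 0.09 (adjusted p = 0.569). Fzd9, named after its values were seen, had 0.307, 0.600 and 1.32 CPM in PWK, against a mean of 0.193 CPM elsewhere (1.77 ± 0.41, adjusted p = 0.000379), with all 8 PWK libraries above the median of the others.

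Of the R-spondins, Rspo1 had the highest level per kilobase and was lowest in NZO. It had 2.96, 5.66 and 14.8 CPM in NZO, against 5.83 to 40.8 CPM in the other strains (−1.49 ± 0.24, adjusted p = 4.51e-07). All 8 NZO libraries lay below the median of the others. Means ran from WSB (15.4) through Cast (17.8), PWK (18.5), 129 (19.4), B6 (20.9) and NOD (23.7) to AJ at 25.9 CPM. AJ was called higher (0.64 ± 0.21, adjusted p = 0.0192), a call lost without AJ replicate 2 (0.50, adjusted p = 0.111), without AJ replicate 4 (0.54, adjusted p = 0.0836), and without the 10 libraries rich in markers of liver, genital duct or muscle (adjusted p = 0.208).

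Rspo1 and Wnt2b moved with markers of mesothelium, the cell layer that covers visceral fat and in which Rspo1 is itself known as a marker. The 12 other mesothelial markers, Rspo1 left out, summed to 76.5, 137 and 263 CPM (lowest, median and highest) in NZO. In the other strains the median sum ran from 237 CPM in WSB to 618 CPM in Cast, and none of the markers was at 0 throughout a strain. In NZO 11 of the 12 were called lower and 1 higher, and in Cast 9 were called higher. A slope on the log2 marker sum, fitted beside strain and added after the data were seen, was positive for 7 members and negative for none, against 2.45% positive and 1.01% negative of all genes. It was 0.944 ± 0.067 for Rspo1 (adjusted p = 1.73e-16), 1.35 ± 0.154 for Wnt2b (3.07e-09), 0.604 ± 0.13 for Sfrp2 (0.00239) and 0.386 ± 0.0862 for Wnt9a (0.00377), in log2 units of the gene per log2 unit of the sum. Wnt2, Wnt7b and Fzd2 were the remaining 3. The other 24 tested members had no called slope, and that of Fzd3 was −0.0242 ± 0.0807 (0.933).

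With that sum held in the fit, the NZO value of Wnt2b was −0.38 (adjusted p = 0.331) and that of Rspo1 −0.32 (adjusted p = 0.0463), each much smaller. Wnt9a kept −0.61 (adjusted p = 0.00259) and Fzd3 −0.92 (adjusted p = 1.21e-05). Of the 13 NZO calls, 5 held, those of Wnt5b, Wnt9a, Fzd3, Fzd5 and Rspo1, while those of Wnt2b, Wnt4 (−0.33, adjusted p = 0.67), Wnt7b (−1.12, 0.227), Wnt8b (0.42, 0.542), Wnt11 (−0.37, 0.322) and Sfrp2 (0.05, 0.892) were lost at smaller values. The calls of Rspo3 (−1.66, adjusted p = 0.0891) and Rspo4 (2.62, adjusted p = 0.28) were lost too, while their values had been −1.68 and 2.22 without the sum. With 2 members newly called, NZO then had 7 calls, 3 higher and 4 lower. The share of all genes called in NZO in that fit is not given here. The fall from 13 to 7 is therefore not read as particular to the members. Outside NZO the calls of Wnt2 (−0.62, adjusted p = 0.0669), Wnt7b (−1.36, 0.0591), Wnt9a (−0.30, 0.0649) and Fzd2 (−0.33, 0.108) in WSB were lost with the sum in the fit, as were those of Wnt2 (0.44, 0.219), Wnt2b (0.35, 0.256) and Wnt9a (0.27, 0.117) in NOD and of Wnt5a (0.30, 0.0547) and Sfrp4 (0.87, 0.0831) in B6. NZO and low marker sums go together in these libraries, and the part of mesothelium in the levels was not tested. Macrophage markers, 6 of 6 higher in NZO with sums of 780 to 2010 CPM, and adipocyte markers, 9 of 12 lower there, also moved with this strain, and their part was not tested.

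**Figure D4:**
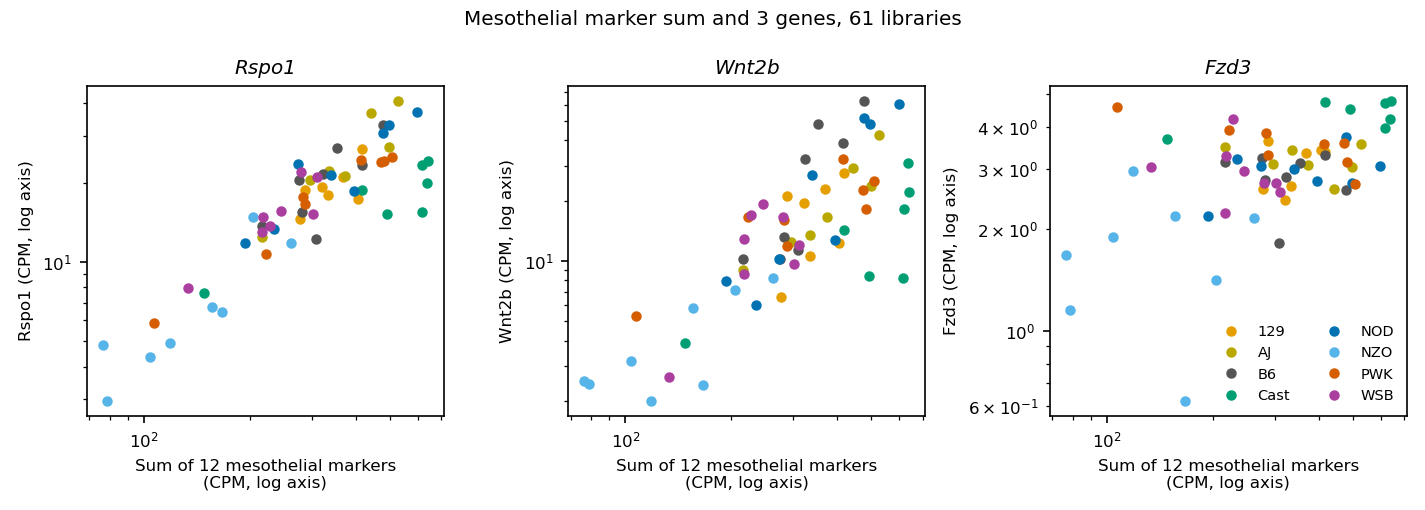
CPM of Rspo1, Wnt2b and Fzd3 against the sum of 12 mesothelial markers in each of 61 libraries, coloured by strain, both axes logarithmic. Rspo1 and Wnt2b climb with the sum and the NZO libraries lie at its low end (76.5 to 263 CPM), while the NZO libraries are low for Fzd3 at sums where other strains are not.

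Rspo2, Rspo3 and Wnt7b moved with a few libraries. Rspo2, outside the naming rule with a mean of 0.588 CPM, had 0.234, 0.579 and 11.6 CPM in 129, against 0 to 1.49 CPM in the other strains (log2 fold change 4.89 ± 0.51, adjusted p = 3.06e-11). The 3 high libraries were replicates 6, 7 and 9 with 11.6, 4.06 and 9.76 CPM, and the 4 others had 0.234 to 0.579 CPM. The 3 high ones were also the libraries of 129 with low Xist (0.243 to 4.19 CPM), and the 4 low ones those with high Xist (420 to 584 CPM), where Xist is the RNA of the inactive X chromosome. In the same 3 libraries Wnt7b had 5.66, 1.77 and 5.31 CPM, against 0.232 to 0.527 CPM in the 4 low ones. Rspo3 there had 4.76, 2.67 and 5.12 CPM, against 0.116 to 0.443 CPM in the 4. Markers of genital ducts, of which 3 of the 8 listed were in the table, summed to 104, 34.1 and 91.2 CPM in these 3 libraries, while the median over 129 was 2.31 CPM. Without the 10 libraries over 10 CPM of these markers, Rspo2 in 129 was 1.90 (adjusted p = 0.0358) and Wnt7b in 129 was 0.14 (adjusted p = 0.914). That fit kept only the 4 libraries of 129 with high Xist, so duct markers and Xist cannot be told apart within 129. Rspo2 stayed called there at a smaller size, and Wnt7b did not. Whether duct tissue carried these transcripts was not tested, and NOD replicate 6 and NZO replicate 8, with marker sums of 350 and 432 CPM, had 0.155 and 0 CPM of Rspo2. The 3 duct markers did not move alike between strains. In 129, 2 were called higher and 0 lower, in NOD 1 and 0, in NZO 1 and 2, and in PWK 1 and 1. Which marker makes up the sum of a library is not given here, so equal sums need not mean the same tissue. Wnt7b was also called in B6 (1.46 ± 0.47, adjusted p = 0.0164), where replicate 6 with 118 CPM of duct markers held 5.22 CPM, and without it the value was 0.53 (adjusted p = 0.497). In Cast, Rspo2 had no read in 5 of 7 libraries and 8 reads in all (−2.81 ± 0.97, adjusted p = 0.012). Wnt7b values in NZO (−2.73 ± 0.69, adjusted p = 0.000772) and WSB (−1.95 ± 0.66, adjusted p = 0.0114) rest on 30 and 39 reads.

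Rspo3, an R-spondin expressed by stroma and endothelium in many tissues, varied widely within PWK. In PWK it had 0.129, 3.01 and 26.7 CPM, against 0.116 to 8.70 CPM in the other strains (1.95 ± 0.43, adjusted p = 0.000219). PWK replicate 6, with 393 CPM of duct markers, held the 26.7 CPM, and without it the value was 0.74 (adjusted p = 0.197). Without all 10 libraries over 10 CPM of duct markers the call in PWK held at 1.31 (adjusted p = 0.0131). Without the 10 libraries rich in markers of liver, genital duct or muscle it was lost at 1.21 (adjusted p = 0.0586). The same library had the highest Dkk3 (43.2 CPM), Sfrp4 (47.1), Fzd7 (50.2) and Dkk2 (9.59 CPM) of all 61. In B6 Rspo3 had 0.975, 4.05 and 8.70 CPM, all 8 libraries above the median of the others (1.55 ± 0.45, adjusted p = 0.00671), and this call held in every fit without a library. In NZO it had 0.222, 0.551 and 1.22 CPM, all 8 below that median (−1.68 ± 0.59, adjusted p = 0.0139). This NZO call was lost without the libraries over 10 CPM of duct markers (−1, adjusted p = 0.085). It held without the libraries rich in markers of liver, genital duct or muscle (−1.5, adjusted p = 0.0229). The means of WSB, AJ, NOD, 129 and Cast lay between 0.8 and 2.13 CPM. An antisense gene overlaps 13.1% of the exon bases of Rspo3.

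Rspo4, also named after its values were seen, was nearly absent from many libraries and had no read in 28 of 61. It had 0, 0.8 and 11.1 CPM in WSB, against 0 to 1.83 CPM in the other strains (4.97 ± 0.66, adjusted p = 8.96e-09). In PWK 1 read was counted in 8 libraries, so the lower call there carries no usable fold. In NZO it had 0, 0.226 and 1.83 CPM (2.22 ± 0.72, adjusted p = 0.00819), and that call was lost without replicate 1 (1.51, adjusted p = 0.101). Without WSB replicate 1 the WSB value was 4.08 (adjusted p = 3.78e-06).

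Rspo4, several ligands and the Sfrp genes also moved with Xist, the noncoding RNA of the inactive X chromosome. Xist fell into separate ranges, under 10 CPM in 30 libraries and over 300 CPM in 30, with 1 between. The labels give no sex and none was assigned. A slope on log2 Xist beside strain, added after the data were seen, was positive for 8 members and negative for 8, against 17.7% and 18.9% of all genes. It was positive for Rspo4 (0.449 ± 0.067, adjusted p = 6.85e-07), Sfrp4 (0.144 ± 0.0259, 1.71e-05), Wnt2b (0.118 ± 0.0221, 3.2e-05), Wnt2, Fzd2, Fzd7, Sfrp2 and Dkk3. It was negative for Sfrp1 (−0.166 ± 0.0238, 3.26e-07), Wnt6 (−0.154 ± 0.0294, 4.6e-05), Wnt11 (−0.0836 ± 0.0133, 2.4e-06), Wnt5b, Wnt9a, Fzd4, Fzd5 and Fzd6. In WSB, Rspo4 had 1.49 to 11.1 CPM in the 4 libraries with high Xist, against 0 to 0.106 CPM in the 4 with low Xist. Wnt2b had 32.4 to 63.0 CPM in the 4 B6 libraries with high Xist, against 10.2 to 13.2 CPM in the 4 with low Xist. In NZO, Wnt2b had 2.00 to 3.18 CPM in the 4 libraries with high Xist and 2.39 to 8.27 CPM in the 4 with low Xist, so the order seen in B6 was absent there. Its ranges overlapped in PWK too, with 5.34 to 32.4 CPM at high Xist and 11.9 to 25.1 CPM at low Xist. In 129, AJ, Cast, NOD and WSB they were apart as in B6. Held in the fit, Xist changed the NZO value of Wnt2b to −1.73 (adjusted p = 1.56e-05) and ended 2 calls, Wnt2 in NOD (adjusted p = 0.0781) and Wnt6 in WSB (adjusted p = 0.107).

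Among the inhibitors, Sfrp1 and Sfrp4 were not called over strains, and both had a slope on Xist. Sfrp1 had strain means from 18.7 CPM in AJ to 38.7 CPM in WSB, with 7.53% of its variance between strains. In WSB it had 7.18 to 12.3 CPM in the 4 libraries with high Xist, against 59.8 to 77.2 CPM in the 4 with low Xist, and in PWK 3.59 to 15.4 CPM with high Xist, against 47.1 to 92.5 CPM with low Xist. In NZO the ranges overlapped, with 21.5 to 44.3 CPM at high Xist and 19.2 to 50 CPM at low Xist. They also overlapped in AJ (13.8 to 16.9 CPM at high and 14.5 to 24.6 CPM at low Xist). The same held in Cast (2.95 to 13.1 CPM at high and 12.7 to 33 CPM at low Xist). In 129, B6 and NOD the Sfrp1 ranges were apart, lower at high Xist. Sfrp4 went the other way, with 22 to 28.5 CPM in the 4 NOD libraries with high Xist, against 3.56 to 6.56 CPM in the 4 with low Xist. The ranges were also apart in AJ, Cast and WSB, and they overlapped in 129, B6, NZO and PWK, with 15.3 to 43.9 CPM at high Xist and 14.1 to 24.3 CPM at low Xist in B6. Sfrp4 had 38.8% of its variance between strains. Its F-test over strains missed the threshold (adjusted p = 0.0633) but passed it in 7 of the 10 alternative fits, among them that with Xist (adjusted p = 0.000496), and without PWK replicate 6 (0.000401), Cast replicate 2 or Cast replicate 3. Its call in B6 (24.1 against 12.8 CPM, 0.99 ± 0.39, adjusted p = 0.0499) was lost in 46 of 61 fits without a library. Sfrp2 was higher in AJ (38.3 against 23.1 CPM, 0.78 ± 0.22, adjusted p = 0.00664), a call lost without AJ replicate 2 (0.62, adjusted p = 0.0567). It was lower in Cast (15.2 against 26.4 CPM, −0.74 ± 0.25, adjusted p = 0.0108) and NZO (15.3 against 26.4 CPM, −0.74 ± 0.24, adjusted p = 0.00765). The call in Cast was lost without Cast replicate 6 (−0.58, adjusted p = 0.0503). Sfrp2 had fractional expected counts in most libraries and overlaps an antisense gene over 16.1% of its exon bases, so its values are uncertain.

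**Figure D5:**
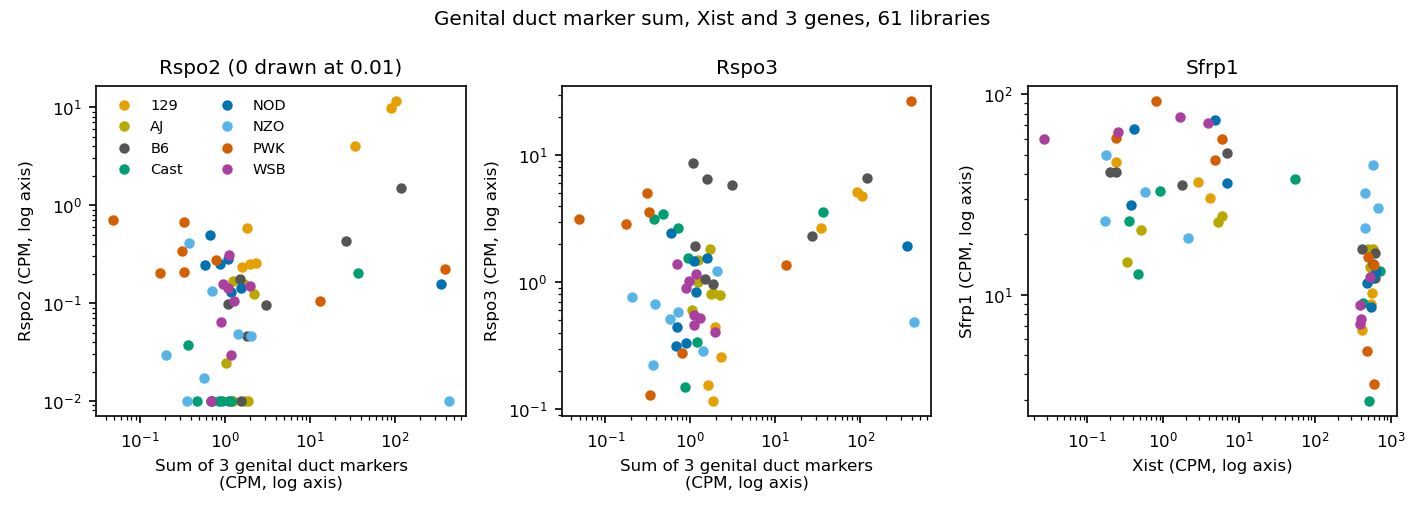
CPM of Rspo2 and Rspo3 against the sum of 3 genital duct markers, and of Sfrp1 against Xist, in 61 libraries coloured by strain, all axes logarithmic and Rspo2 values of 0 drawn at 0.01. The 3 libraries of 129 at 34.1 to 104 CPM of duct markers have 4.06 to 11.6 CPM of Rspo2, and libraries with over 300 CPM of Xist mostly lie lower for Sfrp1.

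Dkk2, a Dickkopf that binds the co-receptors, was highest in PWK. It had 1.53, 3.77 and 9.59 CPM in PWK, against 0.320 to 4.59 CPM in the other strains (1.39 ± 0.22, adjusted p = 4.68e-07). All 8 PWK libraries lay above the median of the others, and without replicate 6 the value was 1.10 (adjusted p = 7.17e-05). Dkk2 was lowest in WSB, with 0.320, 1.03 and 1.35 CPM (−0.98 ± 0.27, adjusted p = 0.00204), and low in NOD, with 0.524, 0.930 and 2.19 CPM (−0.89 ± 0.27, adjusted p = 0.00909). The means of 129, NZO, Cast, AJ and B6 lay between 1.47 and 2.31 CPM. Dkk3, a divergent member of the family, was also lowest in WSB, with 1.41, 3.14 and 5.64 CPM, against 1.66 to 43.2 CPM in the other strains (−1.33 ± 0.32, adjusted p = 0.00051). All 8 WSB libraries lay below the median of the others for both Dkk genes. Other Dkk3 means ran from 5.69 CPM in Cast through NOD (7.32), 129 (7.81), AJ (9.32), NZO (9.80) and B6 (10.3) to PWK at 10.9 CPM, and none was called.

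Other genes of the pathway, from 3 lists, were read beside the members. Of 23 tested genes that act at the membrane or in Wnt secretion, 22 differed among strains, where 89.9% of all genes did. In NZO 2 were higher and 12 lower, against 27.2% and 26.6% of all genes, with a median log2 fold change of −0.38 where the median of all genes was −0.02. Lgr5, a receptor of R-spondins, had 0.312, 0.550 and 9.43 CPM in 129, against 0 to 5.95 CPM elsewhere (3.14 ± 0.48, adjusted p = 9.08e-07). Rspo2 and this receptor were thus both called higher in 129, each with a low median. The high Rspo2 values lay in the libraries of 129 with genital duct markers and low Xist, and no value of Lgr5 without them is given here. Lgr6, its relative, averaged 0.276 CPM in NZO, against 4.58 CPM elsewhere (−3.42 ± 1.10, adjusted p = 0.00741). Notum, which removes the lipid from Wnts, averaged 0.0305 CPM in NZO, against 0.379 CPM (−3.31 ± 0.98, adjusted p = 0.00359), and Wif1, a secreted Wnt inhibitor, 0.0186 CPM in Cast, against 1.01 CPM (−4.66 ± 1.04, adjusted p = 0.000145). The means of Notum and Wif1 in these strains rest on few reads.

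Of 22 genes of the cytoplasm and nucleus, 20 differed among strains, where 89.9% of all genes did. In WSB 3 were higher and 8 lower, against 25.6% and 23.7% of all genes. Dact1, which binds Dishevelled, averaged 7.82 CPM in WSB, against 16.8 CPM elsewhere (−1.04 ± 0.21, adjusted p = 3.09e-05), and its relative Dact3 averaged 7.31 CPM in PWK, against 4.79 CPM (0.65 ± 0.21, adjusted p = 0.011). Pygo1, a nuclear partner of β-catenin, averaged 13.3 CPM in AJ, against 7.52 CPM (0.92 ± 0.18, adjusted p = 8.15e-05), and the corepressor Tle1 averaged 43.3 CPM in Cast, against 28.7 CPM (0.61 ± 0.13, adjusted p = 4.26e-05). Of 14 frequent targets of β-catenin, 14 differed among strains, where 89.9% of all genes did, with 1 higher and 6 lower in WSB (median −0.49) and 3 higher and 5 lower in NZO (median −0.35). The adhesion receptor Cd44, which leukocytes also express, averaged 170.0 CPM in NZO, against 55.5 CPM elsewhere (1.65 ± 0.21, adjusted p = 2.34e-09). The transcription factor Sp5 averaged 0.0175 CPM in NZO, against 0.177 CPM (−2.86 ± 0.95, adjusted p = 0.00933). Lef1, a partner of β-catenin on DNA, averaged 0.216 CPM in Cast, against 0.672 CPM (−1.55 ± 0.44, adjusted p = 0.00233), and Wisp2, a secreted matrix protein of precursors, 3.03 CPM in Cast, against 13.1 CPM (−1.95 ± 0.58, adjusted p = 0.00363). Among all genes, 25.6% were higher and 23.7% lower in WSB, and 27.2% higher and 26.6% lower in NZO. AJ, the strain highest in Wnt10b, had 2 targets called higher and 0 lower, against 13.4% and 9.59% of all genes, with a median over the targets of −0.30. Axin2, outside the naming rule, was 1 of these 2, with a mean of 35.8 CPM in AJ, against 20.8 CPM elsewhere (0.81 ± 0.13, adjusted p = 1.44e-06). Whether Wnt10b and these targets are linked was not tested.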

How the data were processed

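Per the labels' protocols, RNA from pulverised adipose tissue was made into poly(A) libraries with a KAPA mRNA HyperPrep kit after spike-in RNA was added. Expected counts of 21169 genes were deposited by the authors, in which reads matching several genes are divided (21.1% of values were not whole within 1e-06), together with log2 values after a variance-stabilising transformation. The submitters' processing notes name build GRCm38 and DESeq2 without a version, and the aligner and counter are not given in the sources used here.

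Expected counts were rounded, filtered with filterByExpr by strain (18603 genes tested, 2566 set aside), scaled by TMM and fitted with the quasi-likelihood test of edgeR 4.0.16 (R 4.3.3) with 1 mean per strain. An F-test compared all strains, and 8 contrasts set a strain against the other 7, each weighted alike. Calls are 2-sided and need a p under 0.05 after Benjamini-Hochberg adjustment over the tested genes of that comparison. Logged CPM carry a prior count of 2. CPM of members and marker sums use library sizes over the tested genes, scaled by TMM, not the total counts. Exon lengths came from GENCODE, sequences from RefSeq.

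The members and all gene lists were chosen with earlier results of these data known. Every member is named. Values by strain are given for members averaging at least 1 CPM with 1 of the 12 smallest F-test p-values or 1 of the 12 largest called fold changes (15 members), and for up to 4 genes per pathway list. Of 203 library pairs within strains none was identical, and the lowest chi-square per gene was 18.5.

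Alternatives were RLE size factors, no filter, at least 1 mean CPM, DESeq2 1.42.0, limma 3.58.1 on the deposited log2 values, the replicate number as a block, Xist or the mesothelial marker sum as a covariate, leaving out libraries rich in other tissues, and each library in turn. Covariate slopes and the fit without libraries over 10 CPM of genital duct markers were added after the data were seen. On simulated data for NZO with 18384 genes the test found 60.2% of 98 genes shifted by 1 (log2). It found 44.4% of 99 shifted by 0.5, and 6.36% of its calls fell on unchanged genes. Far fewer genes were shifted there than the 53.9% called in NZO in the data. The shares found hold for that setting only, and recovery in the reported contrasts was not tested.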

Additional observations from a re-analysis of the deposited data

Results flagged for a closer look

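Among the 15 members named with values, 8 of 120 strain groups held a library that stood apart from the rest of its strain by Dixon's criterion, and chance gives about 1 in 20. WSB replicate 5 had the lowest Wnt2b of its strain at 2.64 CPM, with the next library at 8.61 CPM. NOD replicate 7 had the highest Wnt5a at 40.7 CPM, with 35.7 CPM next. NZO replicate 8, the library with the most genital duct markers, was lowest for Fzd2 at 4.60 CPM (next 6.41) and for Fzd5 at 13.5 CPM (next 22.8). B6 replicate 6 was lowest for Fzd3 at 1.82 CPM (next 2.60), and NOD replicate 6 for Fzd4 at 519 CPM (next 668). Both also held over 10 CPM of genital duct markers. Cast replicate 7 was lowest for Rspo1 at 7.61 CPM (next 15.2), and WSB replicate 4 for Dkk2 at 0.320 CPM (next 0.864).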

How the results depend on the processing

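Under the 10 alternatives the F-test called 18 to 27 members where it had called 24, and 24 to 25 when any library was left out. Shares of all genes called in these fits are not given here, so changes in the counts below are not read as particular to the members. The 18 came with at least 1 mean CPM, where Wnt7b, Wnt8b, Wnt9b, Fzd9, Rspo2 and Rspo4 were no longer tested. No called member that was still tested lost its call there, and the other alternatives called 24 to 27. RLE size factors changed none of the 74 pair calls, and DESeq2 ended 1 (Rspo4 in NZO). The limma fit on variance-stabilised values, which compress low counts, ended 11. No label ties libraries of the same replicate number, and r of deviations was over 0.1 in 96 of 186 same-number pairs (median 0.108, against −0.0184 for other pairs), so they were not taken as pairs. As a hint from the data, 21 of 61 libraries correlated best with their own number, and in 129, B6, NOD and NZO numbers 1 to 4 were the libraries with high Xist. With the number as a replicate block 4 pair calls ended, Wnt2b in NOD, Wnt6 in WSB, Wnt8b in NZO and Fzd3 in PWK, and the F-test called 25 members. With at least 1 mean CPM, 129 had 1 called member in place of 4, since Rspo2, Wnt7b and Wnt8b were no longer tested. With the mesothelial sum as a covariate, NZO had 7 in place of 13, 16 pair calls ended and Sfrp2 in NZO turned to 0.05 (adjusted p = 0.892). How the calls of all genes in NZO changed in that fit is not given here. The cause was not tested. Leaving out each library gave 4 to 5 called members in 129, 3 to 7 in AJ (3 without AJ replicate 2), 7 to 11 in B6, 10 to 14 in Cast, 7 to 11 in NOD, 10 to 16 in NZO, 8 to 11 in PWK and 10 to 12 in WSB. Single libraries moved other low members: Rspo2 in 129 was 4.29 without replicate 6, Rspo2 in Cast −5.00 without replicate 8 and Wnt7b in NZO −3.37 without replicate 6. For Rspo4 in PWK no value is given without PWK replicate 6, which held its only read in that strain. The F-test called Wnt4 without NZO replicate 8 (adjusted p = 0.0337) and Fzd8 without NZO replicate 6 (0.00961). Fold changes of members under 1 CPM rest on few reads.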
